A study of Rattus norvegicus with 7 samples.

Results

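The genes described here encode proteins of the myelin sheath and the enzyme that makes its main galactolipid: Mbp, Mobp, Mog, Mag, Cnp, Ermn, Mal, Cldn11 and Ugt8. These 9 genes, of 19991 genes and unnamed probes tested, were chosen by name, and their probes were found through the transcript accessions of the scanner tables, looked up among the rat genes of RefSeq. All 9 were on the array, with 12 of its 30367 probes, and every one of the 9 was well above background on all 7 arrays. RNA came from the cerebellum of female Wistar pups at postnatal day 21 and was hybridised to 1-colour Agilent arrays. The 4 CTRL pups had mothers on a standard diet. The 3 MDD pups (methyl donor deficiency) had mothers whose food lacked folate and vitamin B12 and held less choline. Both diets ran from 1 month before pregnancy to weaning at postnatal day 21. The pups of a group are called biological replicates, with no dam or litter named, so p-values measure the spread between these pups and not between litters.

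Myelin of the central nervous system is the membrane that oligodendrocytes wrap around axons. Its compacted layers are held together in part by the basic protein of Mbp, while Mag, Mog and Cnp act at the inner, outer and uncompacted membrane of the sheath. In the rat cerebellum oligodendrocytes mature and wrap axons during the weeks before weaning. Methyl groups from folate, vitamin B12 and choline enter myelin by methylation of the basic protein on an arginine and by synthesis of phosphatidylcholine.

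The upstream sequences of Mobp, Mbp and Cnp are shown because Mobp was lower in MDD, Mbp has separate annotated starts and probes with different changes, and Cnp did not pass the test. The RefSeq promoter table of rat assembly GRCr8 held 7 of the 9 genes, with 8 starts, and did not list Ermn or Mog. Each sequence is the 250 bases before the start, 5′ to 3′ on the strand of the gene, which is the plus strand for all of them. Capitals mark the letters ACAAAG or their reverse complement CTTTGT, a core that SOX factors such as Sox10, a regulator of myelin genes, can bind. The window of Mobp lies at chr8:128746982-128747231, that of the upstream Mbp start at chr18:78130402-78130651, that of the downstream Mbp start, 79593 bases on, at chr18:78209995-78210244, and that of Cnp at chr10:86011254-86011503.
Mobp: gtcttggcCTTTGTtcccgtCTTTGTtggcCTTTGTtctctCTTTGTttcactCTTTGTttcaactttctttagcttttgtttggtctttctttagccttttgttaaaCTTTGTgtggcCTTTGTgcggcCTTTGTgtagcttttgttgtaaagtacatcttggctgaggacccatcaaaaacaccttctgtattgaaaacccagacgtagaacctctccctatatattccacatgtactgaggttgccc
Mbp, upstream start: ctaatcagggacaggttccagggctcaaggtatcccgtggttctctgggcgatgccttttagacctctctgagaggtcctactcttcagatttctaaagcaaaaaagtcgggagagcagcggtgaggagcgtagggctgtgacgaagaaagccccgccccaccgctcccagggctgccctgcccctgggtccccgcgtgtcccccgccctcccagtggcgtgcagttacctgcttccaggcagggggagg
Mbp, downstream start: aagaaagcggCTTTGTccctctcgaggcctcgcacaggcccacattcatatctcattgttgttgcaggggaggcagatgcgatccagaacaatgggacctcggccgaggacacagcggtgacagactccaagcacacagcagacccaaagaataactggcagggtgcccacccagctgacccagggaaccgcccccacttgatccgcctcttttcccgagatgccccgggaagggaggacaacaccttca
Cnp: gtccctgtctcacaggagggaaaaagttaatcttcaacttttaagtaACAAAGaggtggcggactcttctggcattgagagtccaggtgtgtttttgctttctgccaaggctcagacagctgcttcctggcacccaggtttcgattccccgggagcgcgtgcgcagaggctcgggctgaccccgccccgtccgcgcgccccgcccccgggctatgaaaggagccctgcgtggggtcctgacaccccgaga
The Mobp window held 8 matches to these 6 letters. Of all 33469 windows of this length 2 held 8 or more (0.00598%), that of Mobp among them, since the cut-off of 8 was taken from Mobp itself. The 8 matches lie in a stretch where the same and similar letters recur at short intervals. GC content was 41.6% in the Mobp window and 58.8% to 81.2% in the other windows of the myelin genes. At least 1 match was found in 4 of the 8 windows of the myelin genes, those of Mobp, Cnp, Mag and the downstream start of Mbp, and in 16.3% of all windows. A match describes the letters and does not show that a factor was bound.

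Levels are log2 signals minus the 75th percentile of the same array, so a level of 1 lies one doubling above that percentile. This percentile ran from 1305 to 2105 intensity units on the CTRL arrays and from 1140 to 1669 on the MDD arrays, and was lowest on the array of MDD replicate 3. No spot was saturated, and each array correlated with the others of its group at a median r of 0.986 to 0.992. Between MDD and CTRL, 4077 of the 19991 features differed by limma at a Benjamini-Hochberg adjusted p under 0.05 (20.4%), 2534 higher (12.7%) and 1543 lower (7.72%), or 2305 and 871 with normexp background correction. All 7 arrays were on 1 slide, with 3 CTRL arrays in its first row and the other CTRL array together with the MDD arrays in its second. With the row as a block, which compares MDD with CTRL replicate 4 alone, 2 features passed. In whole tissue, fewer oligodendrocytes and less RNA per oligodendrocyte cannot be told apart, and the number of arrays limits the precision.

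Mobp and Ermn fell in MDD, and the other 7 myelin genes did not pass the test. Among the 9 genes, limma thus called 0 higher and 2 lower (of all features 20.4% were called, 7.72% as lower). At an unadjusted p under 0.05, 0 were higher and 3 lower, where 38.8% of all features reached that p. The share of the myelin genes called is near that of all features and is no result about them as a set. Their median log2 change was -0.07, beside -0.03 over all features. The groups did not overlap for 4 of the 9, Mobp, Ermn, Ugt8 and Cnp, where 36.5% of all features showed no overlap.

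Mbp encodes myelin basic protein, which binds the cytoplasmic faces of the membrane to each other. Its brighter probe stood at 7.68, 7.43, 7.51 and 7.51 in CTRL replicates 1 to 4, and at 7.35, 7.64 and 8.05 in MDD replicates 1 to 3. The MDD values lay on both sides of the CTRL range, and MDD replicate 3 was the highest of all. The means were 7.53 ± 0.11 (SD, n = 4) and 7.68 ± 0.36 (SD, n = 3), a log2 change of 0.15 (95% interval -0.25 to 0.54, adjusted p = 0.560 by limma). Before scaling, the signal of this probe varied between 268144 and 363634 units, and MDD replicate 3, with the lowest 75th percentile, had 303028 units.

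Mobp encodes myelin-associated oligodendrocytic basic protein, a small protein of compact central myelin. Its brighter probe stood at 3.32, 3.64, 3.50 and 3.79 in CTRL replicates 1 to 4 and at 2.96, 2.96 and 3.04 in MDD replicates 1 to 3. Every MDD array lay below every CTRL array, and the MDD arrays differed little from each other. The mean fell from 3.56 ± 0.20 (SD, n = 4) to 2.99 ± 0.05 (SD, n = 3), which is 1.49-fold lower (log2 -0.57, SE 0.14, adjusted p = 0.0270 by limma). With the row on the slide as a block the log2 change was -0.80 and did not pass (adjusted p = 0.138). Leaving out CTRL replicate 2, CTRL replicate 3, CTRL replicate 4 or MDD replicate 1 also ended the call (adjusted p = 0.0687, 0.0629, 0.0745 and 0.0615), with log2 changes between -0.65 and -0.50 over all 7 omissions.

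Mog encodes myelin oligodendrocyte glycoprotein, which sits on the outermost surface of the sheath. It stood at 0.80, 1.10, 0.83 and 1.03 in CTRL and at 1.15, 0.57 and 0.87 in MDD. The groups overlapped, and the log2 change was -0.07 (95% interval -0.45 to 0.30, adjusted p = 0.765 by limma). Mag encodes the myelin-associated glycoprotein, an adhesion molecule of the innermost membrane that faces the axon. Its brighter probe stood at 4.07, 4.29, 4.31 and 4.53 in CTRL and at 4.19, 4.25 and 4.69 in MDD, again with overlap. Its log2 change was 0.08 (95% interval -0.31 to 0.46, adjusted p = 0.762 by limma).

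Cnp encodes a phosphodiesterase that keeps cytoplasmic channels open in the sheath. The CTRL arrays were close together at 0.79, 0.80, 0.78 and 0.82, and the MDD arrays were at 0.97, 0.84 and 1.49. Each MDD array lay above each CTRL array, but the MDD arrays were spread out and MDD replicate 3 stood highest. The means were 0.80 ± 0.02 (SD, n = 4) and 1.10 ± 0.34 (SD, n = 3), a log2 change of 0.31 that did not pass (95% interval -0.07 to 0.68, adjusted p = 0.198 by limma). Without MDD replicate 3 it was 0.11, the lowest value over the 7 omissions.

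Ermn encodes ermin, also called juxtanodin, a protein of the oligodendrocyte cytoskeleton. It stood at -2.92, -3.02, -3.38 and -3.06 in CTRL and at -3.67, -3.90 and -3.73 in MDD. Every MDD array lay below every CTRL array. The mean fell from -3.10 ± 0.20 (SD, n = 4) to -3.77 ± 0.12 (SD, n = 3), which is 1.59-fold lower (log2 -0.67, SE 0.14, adjusted p = 0.0195 by limma). The log2 change was -0.71 with the row on the slide as a block (adjusted p = 0.178). Leaving out CTRL replicate 2 (adjusted p = 0.0526) or CTRL replicate 4 (adjusted p = 0.0615) ended the call, as did normexp background correction, where the log2 change was -0.42 (adjusted p = 0.0635). Its spots were dim, at 86.0 to 259 units over the arrays.

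Mal encodes a membrane protein that takes part in sorting of lipids and proteins to myelin. It stood at 0.14, 0.61, 0.26 and 0.56 in CTRL and at -0.08, -0.56 and 0.36 in MDD. MDD replicates 1 and 2 lay below the CTRL range and MDD replicate 3 within it, and the log2 change of -0.49 did not pass (95% interval -1.0 to 0.03, adjusted p = 0.146 by limma). Cldn11 encodes the claudin that forms the tight junctions along the sheath. Its values were 0.36, 0.54, 0.58 and 0.45 in CTRL and 0.27, 0.33 and 0.85 in MDD. The MDD arrays lay both below and above the CTRL range, with a log2 change of -0.0022 (95% interval -0.37 to 0.37, adjusted p = 0.994 by limma).

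Ugt8 encodes the transferase that makes galactosylceramide, the glycolipid typical of myelin. It stood at 0.09, 0.09, -0.14 and -0.10 in CTRL and at -0.35, -0.41 and -0.20 in MDD. Each MDD array lay below each CTRL array by a small margin. The log2 change of -0.30 had a 95% interval of -0.59 to -0.02 but did not pass after adjustment over all features (adjusted p = 0.108 by limma).

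**Figure D1:**
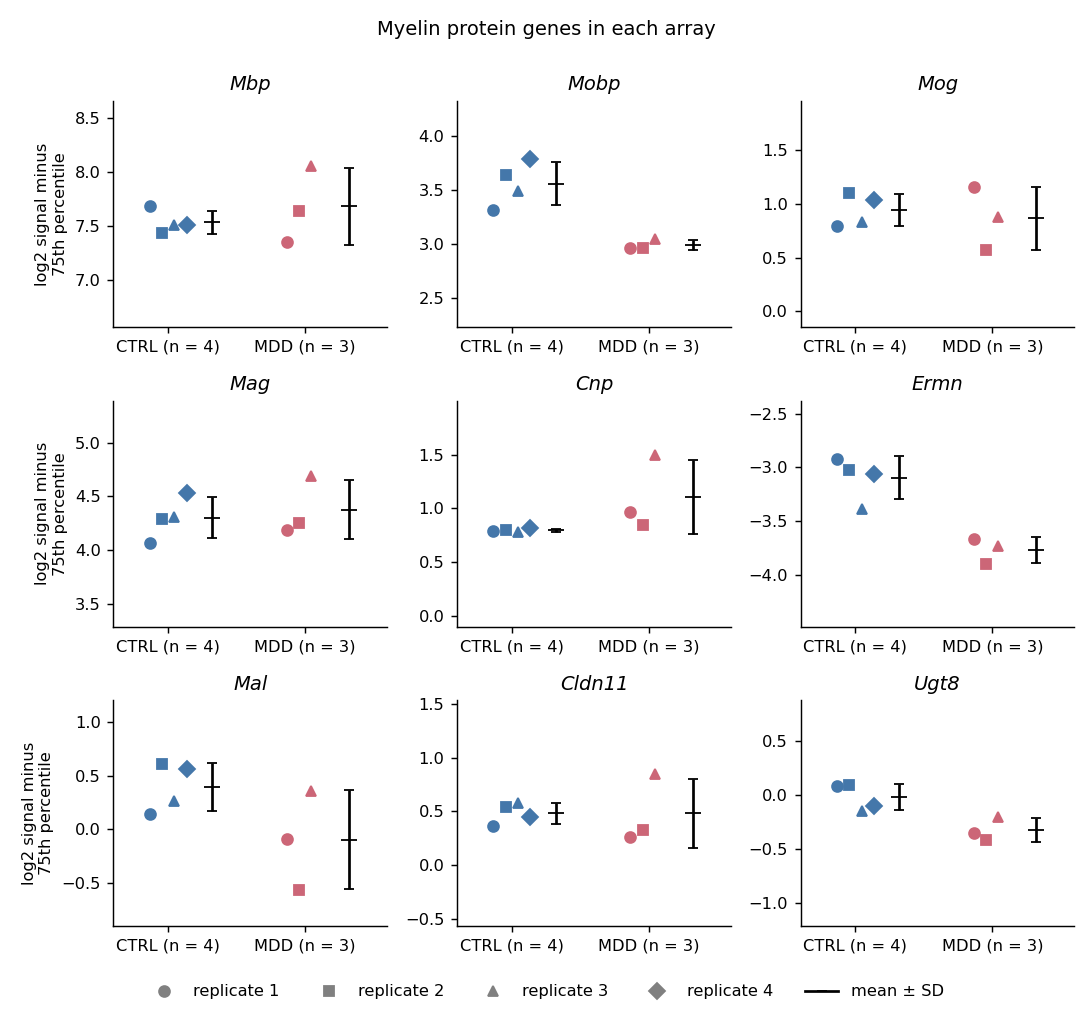
Level of each myelin gene in each array, as log2 signal minus the 75th percentile of the array, with CTRL in blue (n = 4), MDD in red (n = 3), symbols for the replicate number and black bars for mean ± SD. Each panel spans the same range around its own centre; the MDD points of Mobp (2.96 to 3.04) and Ermn (-3.90 to -3.67) lie below all CTRL points, and MDD replicate 3 is the highest point for Mbp, Mag, Cnp and Cldn11.

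The authors' deposited normalization gave the same calls, Mobp and Ermn lower, but other values for the brightest probes. Of its 19991 features 4156 passed (20.8%), 2389 higher (12%) and 1767 lower (8.84%). Its columns show the group and not the array, so values are given by column. Mobp read 17986, 22583, 19826 and 24277 intensity units in the CTRL columns and 10900, 12131 and 11721 in the MDD columns. The groups were far apart, with a log2 change of -0.86 (SE 0.12, adjusted p = 0.00703 by limma). For Ermn the change was -0.42 on the log2 scale (SE 0.13, adjusted p = 0.0460 by limma), and 1 CTRL column, at 180.8 units, lay below the highest MDD column at 181.9 units.

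Mbp and Mag changed sign between the normalizations and passed in neither. Mbp read 386101, 343197, 332678 and 362906 units in the CTRL columns of the authors' table and 271142, 301781 and 287852 in the MDD columns. All MDD columns were below all CTRL columns, as for Mobp and Ugt8 (34.6% of all features did not overlap there), and the log2 change was -0.31 (95% interval -0.54 to -0.09, adjusted p = 0.0533 by limma), against 0.15 with 75th-percentile scaling. For Mag the log2 change was -0.40 (95% interval -0.71 to -0.08, adjusted p = 0.0717 by limma), against 0.08. Quantile normalization gave -0.27 for Mbp and -0.42 for Mag, and neither passed (adjusted p = 0.114 and 0.0651). Over the 200 features with the highest mean signal, 1% of all, the median log2 change was 0.54 with 75th-percentile scaling and 0.04 in the authors' table. Over the 19791 other features it was -0.03 and -0.01.

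For the other 5 genes the log2 changes of the authors' table lay close to those above: 0.26 for Cnp, -0.49 for Mal, -0.26 for Ugt8, -0.16 for Mog and -0.0013 for Cldn11. None of these passed, the smallest adjusted p being 0.0936, for Ugt8. The median over the 9 genes was -0.31 in the authors' table, where that of all features was -0.01.

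**Figure D2:**
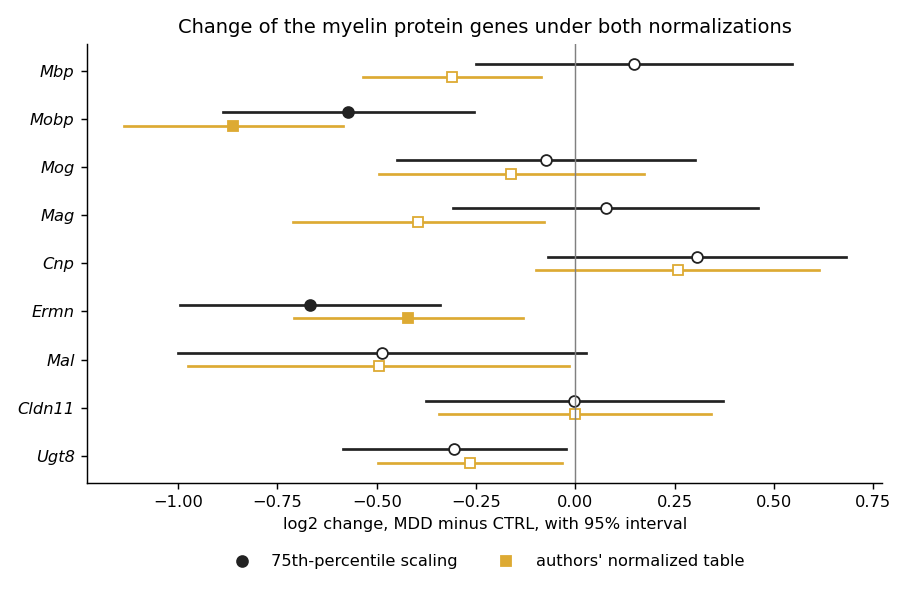
Log2 change of each myelin gene, MDD minus CTRL, with its 95% interval from limma, under 75th-percentile scaling (black circles) and in the authors' normalized table (yellow squares); filled symbols passed the adjusted threshold of 0.05. Mobp (-0.57 and -0.86) and Ermn (-0.67 and -0.42) are filled under both, while Mbp (0.15 and -0.31) and Mag (0.08 and -0.40) switch sides of 0.

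Mbp, Mobp and Mag each had 2 probes, and for Mbp and Mobp 1 of the 2 passed the test. The dimmer Mbp probe, designed on another Mbp transcript accession (NM_001025289, the brighter on NM_001025291), stood at -2.55, -2.65, -2.69 and -2.47 in CTRL and at -3.09, -3.10 and -3.17 in MDD. All MDD arrays were below all CTRL arrays, and this probe fell with a log2 change of -0.53 (SE 0.11, adjusted p = 0.0194 by limma over all 22255 probes, of which 20.1% passed). Which stretch of the transcript each probe reads was not analysed here. The spots of the dimmer Mbp probe gave only 126 to 335 units over the arrays, a range like that of the dim Ermn probe. In the authors' table its log2 change was -0.36 (adjusted p = 0.0421 by limma). In all, 3 of the 12 probes passed, each lower: this one, the Ermn probe and the brighter Mobp probe.

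The dimmer Mobp probe carries the same accession as the brighter one. It stood at 2.87, 2.76, 2.56 and 2.81 in CTRL and at 2.87, 2.59 and 2.66 in MDD, and its groups overlapped. Its log2 change was -0.05 (SE 0.13, adjusted p = 0.819 by limma), and in the authors' table it was -0.23 (adjusted p = 0.133), so the call on Mobp rests on 1 probe. With the mean of both probes the log2 change of Mobp was -0.31 (adjusted p = 0.0916 by limma). The dimmer Mag probe, printed on 10 spots, stood at -0.0013, 0.37, 0.13 and 0.44 in CTRL and at 0.39, 0.38 and 0.14 in MDD, with overlap. Its change was 0.07 on the log2 scale (SE 0.15, adjusted p = 0.761 by limma), close to the 0.08 of the brighter one, which had 1 spot.

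The difference between the probes of one gene within an array does not depend on the scaling factor of that array. The dimmer minus the brighter Mbp probe was -10.23, -10.09, -10.20 and -9.98 in CTRL and -10.43, -10.75 and -11.23 in MDD. The difference was thus lower on all MDD arrays, by 0.68 on average (MDD minus CTRL -0.68, exact permutation p = 0.0286 two-sided, the smallest that 4 against 3 arrays allow, and 0.0857 adjusted over the 3 genes). For Mobp it was 0.53 higher in MDD with no overlap (exact permutation p = 0.0571, adjusted 0.0857), and for Mag it was -0.0083 (exact permutation p = 0.971, adjusted 0.971). In the authors' table the Mobp difference was 0.63 (exact permutation p = 0.0571, adjusted 0.0857), that of Mbp was -0.05 (exact permutation p = 0.714, adjusted 0.714) and that of Mag 0.47 (exact permutation p = 0.0571, adjusted 0.0857). None of these differences passed after adjustment; that of Mobp had the same sign and no overlap under both normalizations, and that of Mbp had no overlap under 75th-percentile scaling alone.

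**Figure D3:**
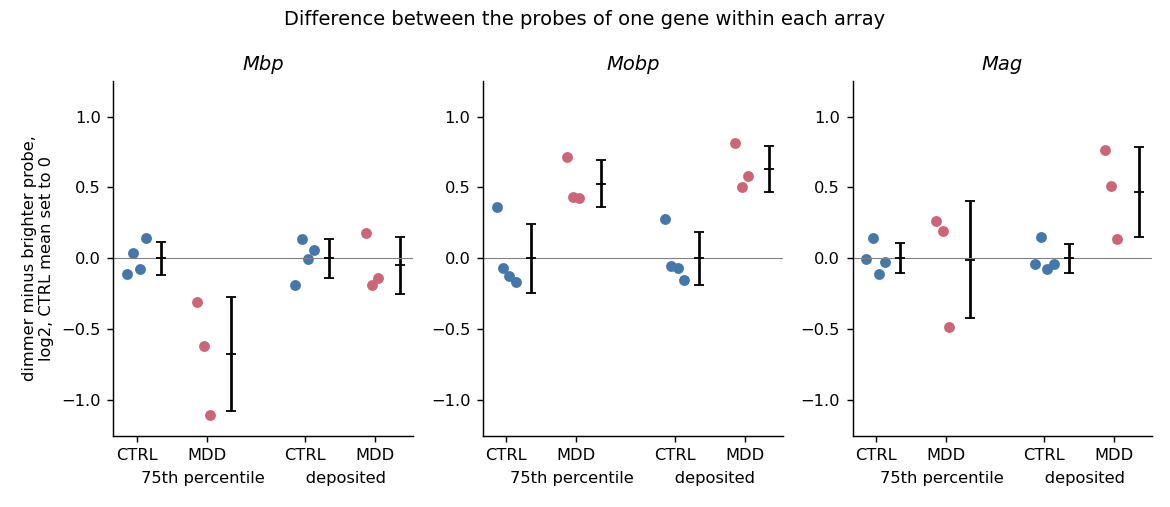
Log2 difference of the dimmer minus the brighter probe of Mbp, Mobp and Mag, with the CTRL mean set to 0, for CTRL (blue, n = 4) and MDD (red, n = 3) and black bars for mean ± SD; in each panel the left pair uses the scanner values of each array and the right pair the columns of the authors' normalized table. The Mobp difference is 0.53 and 0.63 higher in MDD, while that of Mbp is 0.68 lower on the left and 0.05 lower on the right.

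Log2 ratios between myelin genes within an array are given as a description, with no test. Among the 36 pairs the widest shift was that of Cnp over Ermn, from 3.89 ± 0.19 (SD, n = 4) to 4.87 ± 0.31 (SD, n = 3), and Cnp over Mobp moved from -2.77 ± 0.19 to -1.89 ± 0.30. These ratios show unequal change between probes and not which of them moved. With each level centred on its group mean, Cnp followed Cldn11 (r = 0.90 over 7 arrays) and Mal (r = 0.82), and Ermn followed Ugt8 (r = 0.73), whereas Mbp and Mog ran apart (r = -0.45). These correlations describe 7 arrays that share scaling and dissection.

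Averaged over the 9 genes, the level was 1.59, 1.72, 1.58 and 1.73 in CTRL and 1.42, 1.30 and 1.72 in MDD, so MDD replicate 3 lay within the CTRL range and the other MDD arrays below it. The named genes outside the lists whose levels followed this average most closely over the 7 arrays included Cog6 (r = 0.97), Ntm (r = 0.95) and Vmp1 (r = 0.95). They were picked for a high r among all named genes outside the lists, so a high r follows from the choice and tests no likeness. With group means removed, on the same 7 arrays, their r was 0.95, 0.97 and 0.93. None of these 3 passed the test between the groups (adjusted p = 0.205 to 0.679 by limma).

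Other proteins of the sheath and its contact with the axon gave 0 higher and 2 lower of 15 measured genes by limma (2 and 3 at an unadjusted p under 0.05), with a median log2 change of -0.06. Of all features 12.7% were called higher and 7.72% lower, and 38.8% had an unadjusted p under 0.05. Nfasc, which encodes the neurofascins of the node and paranode in neurons and oligodendrocytes, was 1.80-fold lower (log2 -0.84, SE 0.22, adjusted p = 0.0321). With the mean of its probes the log2 change was -0.59 and the call was lost (adjusted p = 0.0617). Omg, the oligodendrocyte myelin glycoprotein, which neurons also express, was 1.54-fold lower (log2 -0.63, SE 0.17, adjusted p = 0.0362).

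Of 16 enzymes and cofactors of myelin sphingolipids, 3 were higher and 2 lower by limma (4 and 3 at an unadjusted p under 0.05), with a median log2 change of 0.10. The shares over all features were 12.7% higher, 7.72% lower and 38.8% at that unadjusted p. Fa2h, which hydroxylates the fatty acids of galactosylceramide, was 1.41-fold lower (2.17 ± 0.19 in CTRL, SD, n = 4, 1.67 ± 0.06 in MDD, SD, n = 3, adjusted p = 0.0375 by limma). Median scaling ended its call (log2 -0.45, adjusted p = 0.0654), and quantile normalization kept it (log2 -0.68, adjusted p = 0.0209). Asah1, the acid ceramidase, had a level 1.63-fold lower in MDD (log2 -0.70, SE 0.15, adjusted p = 0.0183). Smpd1, an acid sphingomyelinase, and Psap, which encodes the saposins, were 1.55-fold and 1.40-fold higher (adjusted p = 0.0143 and 0.0342 by limma). Smpd1 and Psap lost their call with quantile normalization (log2 0.19 and 0.21, adjusted p = 0.246 and 0.185) and in the authors' table (log2 0.23 and 0.24, adjusted p = 0.113 and 0.159).

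Among 23 other genes of mature oligodendrocytes, 1 was higher and 1 lower by limma (4 and 2 at an unadjusted p under 0.05), with a median of -0.02. For this list and the next ones, the shares over all features were 12.7% higher, 7.72% lower and 38.8% at that unadjusted p. Qdpr, which recycles biopterin, rose 1.52-fold (log2 0.61, SE 0.12, adjusted p = 0.0147 by limma), a call lost with quantile normalization (log2 0.36, adjusted p = 0.0504). Lpar1, a lysophosphatidic acid receptor of oligodendrocytes, fell 1.49-fold (log2 -0.57, SE 0.14, adjusted p = 0.0310). Of 13 genes of precursors and lineage factors, 0 were higher and 1 lower by limma (0 and 3 at an unadjusted p under 0.05), and all 13 means were below CTRL, with a median of -0.21. With quantile normalization, in the authors' table and with median scaling, 12 of the 13 were below. Without CTRL replicate 4, or without MDD replicate 1, 11 were below. Over all features 47.5% had a mean above CTRL. Myrf, the transcription factor that switches on myelin genes, was 1.43-fold lower (log2 -0.51, SE 0.15, adjusted p = 0.0493), and lost its call in the authors' table (log2 -0.34, adjusted p = 0.0784). Of 18 genes of cholesterol synthesis and uptake, 1 was higher and 0 lower by limma (4 and 3 at an unadjusted p under 0.05), with a median of -0.08. In the authors' table there were 0 higher and 3 lower, where 12% and 8.84% of all features were called. Fdps, which makes farnesyl diphosphate, was 1.43-fold higher (adjusted p = 0.0499), and its log2 change was 0.36 in the authors' table (adjusted p = 0.0982). Each of the 10 called genes named from these 5 lists lost its call when some single array was left out, with its direction kept in all 70 such fits. Smpd1 and Qdpr lost it without CTRL replicate 4 alone, Asah1 without CTRL replicate 3 or 4, and Myrf without any one array. Nfasc and Lpar1 kept it only without CTRL replicate 1 or MDD replicate 2, Omg without MDD replicate 2 or 3, Psap and Fdps without MDD replicate 2, and Fa2h without CTRL replicate 1. The adjusted p ran from 0.0120 to 0.114 over these fits. With the trends of gene length and signal removed, Omg, Asah1 and Fa2h kept their calls and the others lost theirs, among them Nfasc (log2 -0.61, adjusted p = 0.0685), Qdpr (log2 0.35, adjusted p = 0.0542) and Lpar1 (log2 -0.35, adjusted p = 0.146). Without the filter on dim probes, Smpd1, Asah1 and Qdpr kept their calls and the others lost theirs (adjusted p = 0.0681 to 0.0990).

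**Figure D4:**
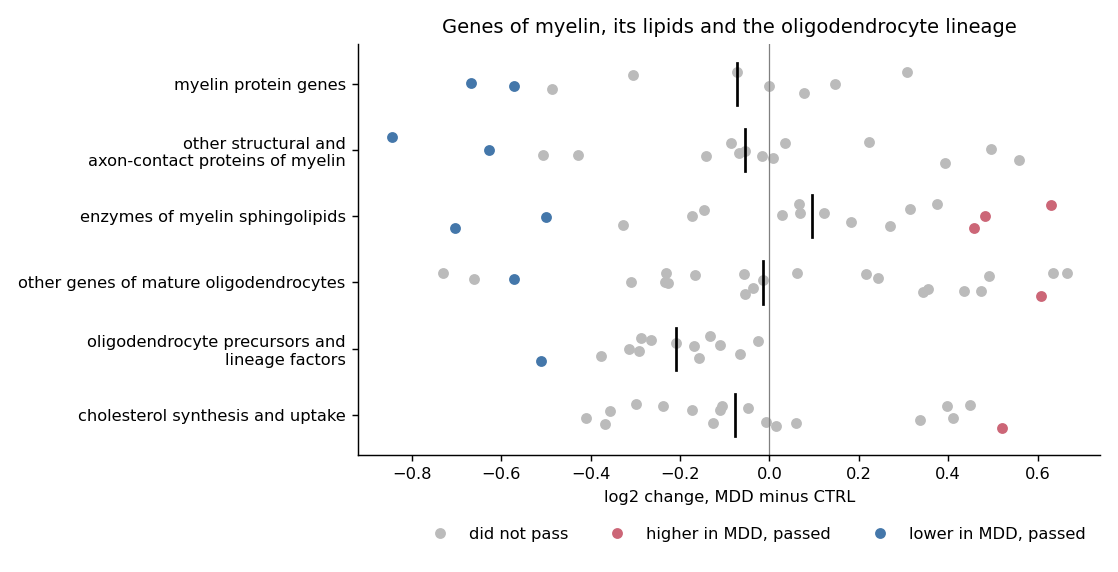
Log2 change, MDD minus CTRL, of every measured gene of the myelin protein genes and of 5 related lists, with genes that passed limma's adjusted threshold in red (higher) or blue (lower), others in grey, and a black line at each list's median. All 13 genes of oligodendrocyte precursors and lineage factors lie left of 0, with 1 of them called, while the other lists spread over both sides. Over all features 47.5% lie right of 0.

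Markers of other cells were read beside these values. Of all features 20.4% were called, 12.7% higher and 7.72% lower. Over the list of other oligodendrocyte markers (Opalin, Sox10, Aspa and Myrf among them), 1 of 6 was called, Myrf, and the mean level ran from 0.27 to 0.50 in CTRL and from 0.02 to 0.43 in MDD. Of 6 microglial markers 4 were higher and 1 lower, with mean levels from -0.61 to -0.39 in CTRL and from -0.22 to -0.01 in MDD. Of 5 neuronal markers measured, Gabra6, Calb1 and Snap25 were lower. Pcp2, a Purkinje cell marker, had the opposite sign and did not pass (5.41 ± 0.20 in CTRL, SD, n = 4, 5.92 ± 0.39 in MDD, SD, n = 3, log2 0.51, adjusted p = 0.101 by limma), and Syt1 did not pass (log2 -0.13, adjusted p = 0.591). The mean over the 5 markers had levels from 2.55 to 2.77 in CTRL and from 2.01 to 2.48 in MDD. Of 6 markers of astrocytes and Bergmann glia 1 was higher, with mean levels from 1.96 to 2.11 in CTRL and from 2.04 to 2.28 in MDD. Of 5 vessel markers 1 was higher, with mean levels from -1.64 to -1.55 in CTRL and from -1.67 to -1.36 in MDD. The part of these cells in the changes of Mobp and Ermn was not tested.

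Schwann cells also make Mbp, Mag and Mal, and cells of nerve roots, choroid plexus or meninges could be carried along with the tissue. Of 5 Schwann cell markers Ncmap and Cdh19 did not pass the filter on dim probes, Pmp2 was well above background on all 7 arrays with a log2 change of -0.25 (adjusted p = 0.415 by limma), and Prx was well above background on 2 of 4 CTRL and 1 of 3 MDD arrays. Of the 3 measured, 1 was lower and 0 were higher, beside 7.72% and 12.7% of all features. The mean level of the 3 ran from -5.44 to -5.03 in CTRL and from -5.88 to -5.49 in MDD. None of 5 choroid plexus markers (2 at an unadjusted p under 0.05) and none of 4 meningeal markers (1 at an unadjusted p under 0.05) passed by limma. Of all features 20.4% passed and 38.8% reached that unadjusted p. The mean level of the choroid plexus markers ran from -1.34 to -0.83 in CTRL and was -0.50, -1.62 and -0.07 in MDD replicates 1 to 3, so MDD replicates 1 and 3 stood above every CTRL array and MDD replicate 2 below. Without MDD replicate 2, 3 of the 5 were higher and their median log2 change was 0.68, against 0.15 with all arrays. Without MDD replicate 1 or 3 the median was -0.09 or -0.11. The mean level of the meningeal markers ran from -1.71 to -1.48 in CTRL and from -1.94 to -1.46 in MDD. The part of these tissues in the changes of Mobp and Ermn was not tested.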

How the data were processed

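Spot intensities on a linear scale were deposited for each array; per the file headers they come from Feature Extraction 10.7.3.1 and a grid of assembly rn4. The processed signal of a spot has its background subtracted within the array. Other deposited columns hold raw median intensities and 0 or 1 flags, which the scanner software scores per the file headers. A further deposited table holds the authors' normalized intensities; no label or header states how it was made.

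The values here are log2 of the processed signal minus the array's 75th percentile, averaged over spots of a probe without control and outlier spots. Of 30367 probes, 22255 passed the filter, being well above background on 3 or more arrays. The brightest probe stood for a gene (11966 named genes, 8025 unnamed probes). MDD was set against CTRL in limma 3.58.1 (R 4.3.3), with p-values adjusted over all 19991 features at 0.05, and the code was tested on simulated data. The members and lists were chosen with earlier results of these data known. Named were all 9 genes with every probe, from each list up to 4 genes that passed by smallest p, and the 5 genes most like the average of the 9; some of these are not reported here. The test of probe differences was chosen after the values were seen. Normexp used the median signal. No label pairs the samples by replicate number. Correlations of deviations were 0.09, -0.17 and 0.22 for equal numbers and -0.22 to 0.15 for unequal ones, too few to decide whether the numbers pair samples.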

Additional observations from a re-analysis of the deposited data

How the results depend on the processing

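Of 323 values for 19 single genes under other settings, 199 kept their direction and side of the threshold, 105 kept their direction and lost the threshold, and 19 changed sign. The 19 genes include 7 myelin genes without a call in the main fit, which had none to lose. For them, keeping the side of the threshold means staying uncalled. All 105 losses fell on the 2 called myelin genes and the 10 called genes of the lists, so the 199 overstates how stable the calls were. The changes of sign concerned Mbp (-0.27 with quantile normalization, -0.31 in the authors' table, -0.19 with the mean of its probes, -0.12 with the trends of gene length and signal removed, -0.040 without MDD replicate 3), Mag (-0.42, -0.40, -0.25 with trends removed, -0.15 with the slide row as block, and -0.080 to 0.17 over the omissions of 1 array), Cldn11 (0.044 with median scaling, 0.0080 with normexp, 0.032 with the row as block, and -0.19 to 0.10 over the omissions) and Mog (-0.22 to 0.075 over the omissions); Mbp ran to 0.31 over them. The count of called myelin genes fell from 2 to 1 with normexp, without a filter on dim probes and with the mean of a gene's probes, and to 0 with the row as block (limma, 2 at an unadjusted p under 0.05). It ran from 0 to 2 when 1 array was left out, and that of the 12 probes from 0 to 3. The median of the 9 genes was -0.32 with quantile normalization and -0.31 in the authors' table, and -0.22 to 0.075 over the omissions. Calls over all features numbered 1593 without the filter, 2 with the row as block, and over the omissions 992 (without CTRL replicate 4) to 5232 (without MDD replicate 2). Calls in the 5 lists went from 11 to 17 in the authors' table, 3 without the filter, 6 with trends removed, 0 with the row as block (limma, 13 at an unadjusted p under 0.05), and 0 to 14 over the omissions. The replicate block, on numbers that no label pairs, left 0 myelin genes (limma, 2 at an unadjusted p under 0.05), 0 genes of the lists (20) and 0 features (6155) called. CTRL replicate 4, with no MDD array of its number, adds nothing to that comparison, and Mobp changed by -0.50 there as without CTRL replicate 4. The slide row and the group are nearly aligned, so that block leaves 1 CTRL array for the comparison, and the cause of the other losses was not tested.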
